A study of Mus musculus with 8 samples.

Results

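A group of 10 genes for factors that fat tissue releases was followed in brown adipose tissue of mice that lack Pgrmc2 in fat. They were the hormone genes Lep and Retn, the plasma proteins Cfd, Agt and Rbp4, the growth factors Nrg4, Bmp8b and Metrnl, the enzyme gene Nampt and the peptide gene Apln. The members are the rows of the authors' table whose gene symbol is one of these names, and all 10 of 10 were found among 24535 genes. The table gives FPKM, the fragments of a gene scaled to its length and to the size of the library.

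The 4 control libraries, WT 55, 62, 64 and 65, were from wild-type mice. The 4 others, PATKO 53, 57, 70 and 71, were from animals whose PGRMC2 was knocked out in adipose tissue. Per the labels, all mice were of strain 129Sv/C57BL6j, 18 weeks old, fed chow and kept at 30 °C, a temperature at which mice need little heat production. The title of the series describes PGRMC2, a membrane protein related to cytochrome b5, as a heme chaperone, and PATKO is compared with WT to see which transcripts differ without it. Neither the allele nor the driver of the deletion is stated in the labels, nor whether every library is from a separate animal. The p-values therefore cover only the variation among these libraries, which may be technical.

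Adipose tissue signals to other organs through secreted proteins, called adipokines. Leptin reports fat stores to the hypothalamus, resistin opposes insulin action in mice, and adipsin, the product of Cfd, is the protease that starts the alternative complement pathway. Brown fat, which burns fuel for heat, also releases factors of its own, such as neuregulin 4 and BMP8B, which act on the liver, on nerves or on the brown adipocyte itself.

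The knockout was checked first. Pgrmc2 was 35.5 to 41.5 FPKM in the WT libraries and 2.99 to 3.67 FPKM in the PATKO libraries, and its PATKO mean was 8.40% of the WT mean. All 12 brown adipocyte markers and all 12 general adipocyte markers were detected in every library; Ucp1 was 521.5 to 1305 FPKM in WT and 409.0 to 645.2 FPKM in PATKO (limma adjusted p = 0.225). Of the 12 brown adipocyte markers limma called 1 higher, the potassium channel gene Kcnk3 (mean 66.7 FPKM in WT and 84.3 FPKM in PATKO, adjusted p = 0.0396), and 0 lower. Elovl3, a fatty acid elongase gene, was 1.42 to 14.7 FPKM in WT and 0.888 to 1.31 FPKM in PATKO (limma adjusted p = 0.0981). Of the general adipocyte markers 3 were called higher, Lpl, Cd36 and Acsl1, and 0 lower. FPKM summed to 287525 to 291153 per WT library and 307371 to 315232 per PATKO library, and the median log2 change of all 12235 tested genes was 0.17. Values are therefore given with FPKM as deposited and after median-of-ratios scaling, which divides each library by its median ratio to the others and brings this median to -0.00. Limma called 1613 genes higher and 33 lower with FPKM as deposited, and 10 higher and 5 lower after scaling, where 0 markers of either adipocyte list passed. The brown adipocyte markers had a median log2 change of 0.003 as deposited and -0.18 after scaling. Before adjustment, limma p-values below 0.05 were found for 2 higher and 1 lower of them as deposited, and for 0 and 3 after scaling. The general adipocyte markers had medians of 0.20 and 0.005, with 5 higher and 0 lower, then 0 and 0. Among all tested genes 34.6% were higher and 1.39% lower unadjusted as deposited, and 9.1% and 8.21% after scaling. Markers of other cells also differed between the groups. The summed level of 20 skeletal muscle markers was 568.0 to 1405 FPKM in WT and 1615 to 6357 FPKM in PATKO, with PATKO 71 highest. The sum of 9 mast cell markers was 11.9 to 15.8 FPKM in WT and 20.6 to 24.9 FPKM in PATKO. That of 12 fibroblast and progenitor markers was 292.6 to 329.1 and 338.0 to 607.1 FPKM, and that of 8 Schwann cell markers 77.0 to 98.8 and 101.7 to 126.4 FPKM. Of the tested markers of these 4 cell types 19 of 20, 4 of 6, 2 of 12 and 3 of 7 rose in limma, and 0, 1, 0 and 0 passed after scaling. The fibroblast count is near the 13.2% of all tested genes called higher. The muscle difference stayed nearly as large, with a median log2 change of 1.79 as deposited and 1.60 after scaling, and 20 of 20 genes were higher at an unadjusted p under 0.05 in limma both ways. For the mast cell markers these medians were 0.95 and 0.80, with 4 of 6 higher unadjusted both ways. Those of the fibroblast and progenitor markers were 0.51 and 0.31, and those of the Schwann cell markers 0.45 and 0.26. Markers of blood cells lay in the other direction, and 0 passed in limma. The 8 erythroid markers summed to 349.0 to 554.5 FPKM in WT and 259.9 to 375.6 FPKM in PATKO, with a median log2 change of -0.38 as deposited and -0.58 after scaling, where 5 of 5 tested were lower unadjusted. The lymphocyte markers summed to 3.55 to 14.8 and 2.83 to 5.25 FPKM, with medians of -0.69 and -0.80, and 3 of 6 tested were lower unadjusted after scaling. In whole tissue, fewer cells of a type and less RNA per cell cannot be told apart.

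The promoters of Agt and Lep are shown because, of the 9 members tested, these had the highest and the lowest log2 change of FPKM + 0.5. Each line gives the 250 bases before the RefSeq start, from RefSeq on GRCm38.p6, 5′ to 3′ on the strand of the gene. The first lies at chr8:124569707-124569956 on the minus strand and the second at chr6:29059971-29060220 on the plus strand. Capitals mark matches to the motifs searched.
Agt: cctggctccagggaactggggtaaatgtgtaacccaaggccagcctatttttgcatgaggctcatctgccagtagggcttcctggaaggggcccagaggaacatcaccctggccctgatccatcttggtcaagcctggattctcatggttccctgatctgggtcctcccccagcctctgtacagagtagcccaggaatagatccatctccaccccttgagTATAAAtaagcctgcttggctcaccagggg
Lep: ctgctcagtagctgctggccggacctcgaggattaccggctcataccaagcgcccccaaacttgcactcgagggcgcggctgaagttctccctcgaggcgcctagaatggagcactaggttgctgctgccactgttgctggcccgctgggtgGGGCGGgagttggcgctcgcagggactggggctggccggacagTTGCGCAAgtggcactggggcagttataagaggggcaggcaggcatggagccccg

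On both strands 7 motifs were searched, chosen by hand and the last with the sequence in view: the TATA box (TATAAA), the CCAAT box (CCAAT), the E-box (CACGTG), the nuclear receptor motif AGGTCA, the antioxidant response element (TGACNNNGC), the SP1 motif (GGGCGG) and the C/EBP palindrome (TTGCGCAA). Agt had a TATA box that begins 30 bases before the start, a motif found in 12.3% of 32536 promoter windows of the same length. Lep had an SP1 motif 98 bases and a C/EBP palindrome 55 bases before the start, motifs found in 33% and 0.166% of these windows. C/EBP alpha is a transcription factor of adipocyte differentiation and is known to act on the leptin promoter. Only exact matches were marked, so a near match to the TATA box, such as tataag in the Lep line, stays in lower case. The matches did not overlap one another, and they describe letters, not binding.

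The members spanned a wide range of levels, and FPKM, being per length, allows them to be ordered. In WT, Cfd was far above the others at 987.5 ± 149.1 FPKM (SD, n = 4) and ranked 27 among all genes. Nampt followed at 79.4 ± 2.03 FPKM. Lep (53.6 ± 8.64), Nrg4 (46.4 ± 5.48), Rbp4 (44.6 ± 12.02) and Retn (36.9 ± 5.30 FPKM) came next, and the ranges of these 4 genes overlapped. Metrnl was at 1.90 ± 0.145 FPKM, and Apln (0.809 ± 0.253) and Agt (0.642 ± 0.158 FPKM) below it overlapped. Bmp8b was lowest at 0.0248 FPKM. In PATKO, Agt stood above Apln without overlap. The means there were 46.3 FPKM for Nrg4, 41.81 for Retn, 41.77 for Rbp4 and 41.46 for Lep, an order that differs from WT, though the ranges of these 4 genes overlapped again.

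**Figure D1:**
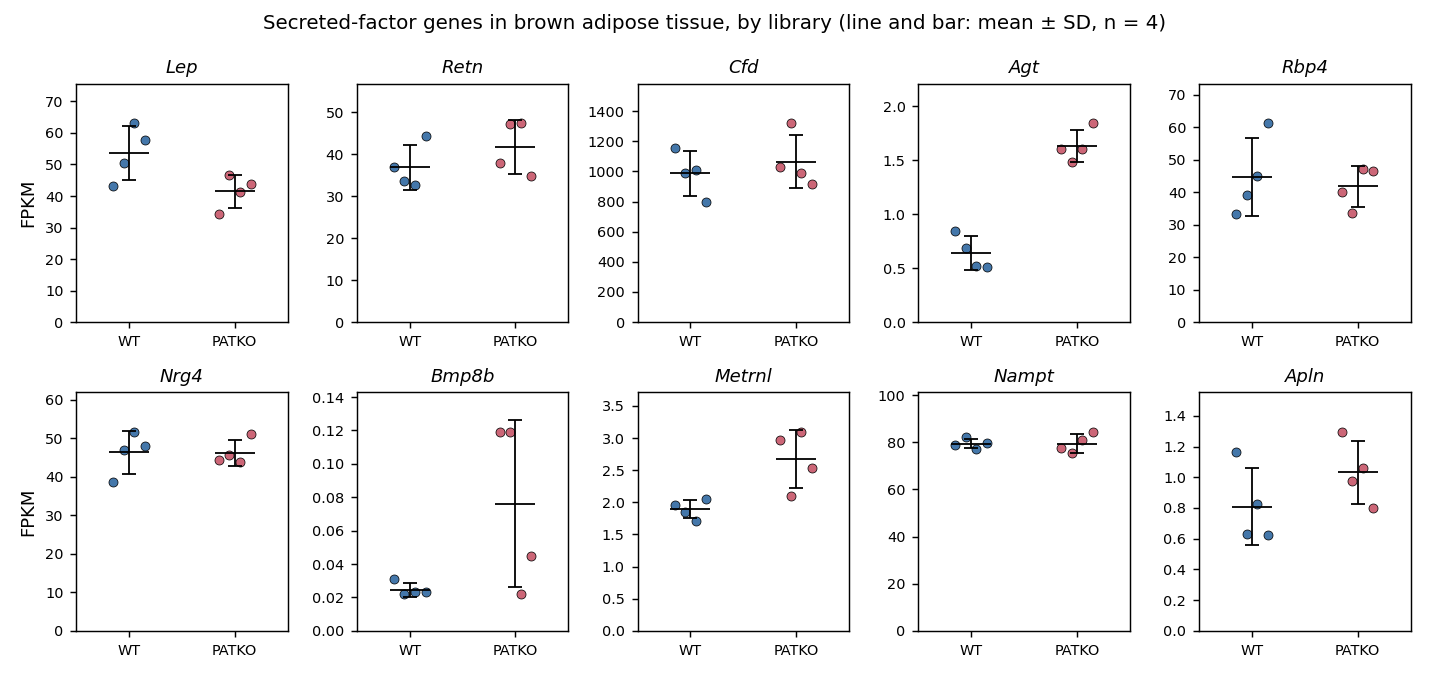
FPKM of the 10 members in each WT and PATKO library, with a linear axis from 0 for each gene; points are libraries and the line and bar are the mean ± SD of 4. The PATKO points of Agt and Metrnl lie above every WT point, and those of the other 8 members overlap WT.

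Of the 10 members, 9 had a mean of at least 0.5 FPKM and were tested. Limma called 1 of them higher and 0 lower in PATKO with FPKM as deposited, where 13.2% of all tested genes were called higher and 0.27% lower. The count of members is thus near the share among all genes. At an unadjusted p under 0.05 in limma, 2 members were higher (34.6% of all genes) and 1 was lower (1.39%). After scaling 0 members were called, where 0.0817% of all genes were called higher and 0.0409% lower, and 2 were higher (9.1% of all genes) and 2 lower (8.21%) unadjusted. With FPKM as deposited the groups did not overlap for 2 members, both higher in PATKO (24% of all genes), and 0 lower (0.597%). The median log2 change of the 9 members was 0.11, and 6 lay above 0 and 3 below, while 84% of all tested genes lay above 0. After scaling their median was -0.09, with 3 above and 6 below 0, where 51.1% of all tested genes lay below 0.

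Angiotensinogen, the precursor that renin and converting enzyme cut into the blood pressure peptide angiotensin II, was the member called. Agt (chromosome 8, 124556534 to 124569706, minus strand on GRCm38) had levels of 0.847, 0.685, 0.521 and 0.514 FPKM in WT 55, 62, 64 and 65. It was 1.61, 1.48, 1.61 and 1.84 FPKM in PATKO 53, 57, 70 and 71. Every PATKO library was above every WT library, as were 24% of tested genes with FPKM as deposited, and the groups stayed apart after scaling, where 5.57% of tested genes did so. The PATKO mean was 2.55 times the WT mean, and 2.23 times after scaling. The log2 change of FPKM + 0.5 was 0.91 (SE 0.13, limma adjusted p = 0.0181), a scale that understates changes of low genes, and the two-sided exact permutation p was 0.0286, the smallest that 70 assignments allow. After scaling the change was 0.78 (SE 0.13), and the limma adjusted p of 0.0789 missed the threshold. The call was also lost without WT 64 (adjusted p = 0.0553) and without PATKO 53 (adjusted p = 0.0531), while the change stayed at 0.86 and 0.92. Without PATKO 71, the library highest in Agt, the change was 0.87 (limma adjusted p = 0.0358). The authors' deposited table lists Agt with an adjusted p of 0.00691, by an unnamed test, and calls 1.27% of its 24535 genes higher. With FPKM as deposited, the sums of the muscle, mast cell, fibroblast and Schwann cell markers also separated the groups. These sums were not taken after scaling, and their part in the change of Agt was not tested.

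The tested genes with the pattern most like that of Agt over the 8 libraries, after scaling, were Glb1, Tmem94 and Cope, out of 6791 genes whose mean was 5 FPKM or more. Their root mean square distance from Agt in standard deviation units was 0.202, 0.213 and 0.234. A single gene with no relation would lie at about 1.32, but these genes were picked as the closest of 6791. Small distances follow from that choice, and how small they would be without a relation was not tested. Glb1, the lysosomal beta-galactosidase, went from a mean of 5.82 to 7.93 FPKM. Cope, a subunit of the coat of Golgi vesicles, went from 51.3 to 77.6 FPKM.

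Genes that process or sense angiotensin gave the context for Agt. Of 20 genes listed for the renin-angiotensin system 19 were in the table and 13 were tested, of which 4 rose, 0 fell and 9 did not pass. Their median log2 change was 0.27, against 0.17 for all genes, and 0.08 after scaling. Of all tested genes 13.2% were called higher with FPKM as deposited and 0.0817% after scaling. Cma1, the mast cell chymase, which can make angiotensin II, rose from 1.10 ± 0.117 to 2.69 ± 0.262 FPKM (n = 4, SD; limma adjusted p = 0.00559). It was the sole gene of the list to pass after scaling (limma adjusted p = 0.0324). Mast cell genes moved with it: 4 of 6 tested mast cell markers rose, Cma1 among them, and 1 of 6 passed after scaling. Agtrap, a protein that binds the angiotensin receptor, rose from 6.34 ± 0.838 to 8.72 ± 0.709 FPKM. The prorenin receptor gene Atp6ap2 rose from 12.7 ± 0.299 to 15.4 ± 0.768 FPKM, and Enpep, an aminopeptidase that degrades angiotensin II, rose from 4.55 ± 0.511 to 6.30 ± 0.906 FPKM. After scaling their log2 changes were 0.08 for Atp6ap2 (limma adjusted p = 0.572) and 0.24 for Enpep (limma adjusted p = 0.322). The converting enzyme gene Ace was 4.66 ± 0.872 FPKM in WT and 7.46 ± 1.82 in PATKO (limma adjusted p = 0.0520). The receptor gene Agtr1a was 2.94 ± 0.738 and 3.72 ± 0.664 FPKM (limma adjusted p = 0.206). Renin itself (Ren1) and the receptor gene Agtr1b were listed at 0 in all 8 libraries.

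**Figure D2:**
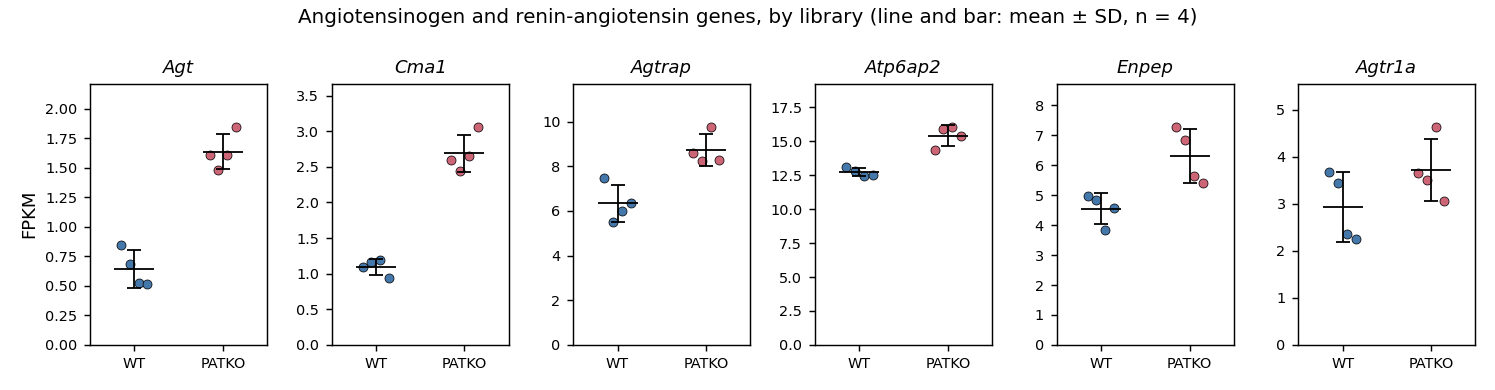
FPKM of Agt and of 5 renin-angiotensin genes in each WT and PATKO library, with a linear axis from 0; points are libraries and the line and bar are the mean ± SD of 4. With FPKM as deposited, Agt, Cma1, Agtrap, Atp6ap2 and Enpep are higher in PATKO without overlap, as are 24% of all tested genes. Agtr1a runs from 2.24 to 3.69 FPKM in WT and from 3.05 to 4.63 FPKM in PATKO. After scaling, which is not drawn, the groups overlap for Atp6ap2 and Enpep.

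Leptin had the lowest log2 change of the tested members. Lep (chromosome 6, 29060220 to 29073877, plus strand) was 43.2, 50.5, 63.0 and 57.6 FPKM in WT 55, 62, 64 and 65, while PATKO 53, 57, 70 and 71 had 34.3, 46.6, 41.2 and 43.8 FPKM. With FPKM as deposited the groups overlapped, since PATKO 57 and PATKO 71 were above WT 55. On average PATKO had 77.3% of the WT level (log2 change -0.36 with an SE of 0.13; adjusted p = 0.0809 in limma and p = 0.0857 in a two-sided exact permutation test). After scaling, every PATKO library was below every WT library, as were 4.36% of tested genes. The log2 change was then -0.56 (with an SE of 0.14; adjusted p = 0.141 in limma and p = 0.0286 in a two-sided exact permutation test). The fall passed the threshold with FPKM as deposited when WT 55 was left out (log2 change -0.46, limma adjusted p = 0.0402). The authors' deposited table gives Lep an adjusted p of 0.00703, where 0.962% of its genes are called lower. Other genes enriched in white adipocytes, 11 in all, summed to 63.7 to 104.5 FPKM in WT and 50.9 to 84.4 FPKM in PATKO, and 0 of 6 tested passed in limma (1 higher and 1 lower unadjusted; 1 and 2 after scaling). Their part in the level of Lep was not tested. Unadjusted, 34.6% of all tested genes were higher and 1.39% lower in limma, and 9.1% and 8.21% after scaling. The leptin receptor gene Lepr was at or below 0.128 FPKM in all libraries and was not tested.

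Resistin and adipsin differed little. Retn (chromosome 8, 3655770 to 3660110, plus strand) was 36.995, 33.5, 32.7 and 44.4 FPKM in WT 55, 62, 64 and 65, while PATKO 53, 57, 70 and 71 had 37.8, 47.1, 47.4 and 34.9 FPKM. The groups overlapped, and the log2 change of 0.18 (SE 0.13, limma adjusted p = 0.328) was -0.02 after scaling. Cfd (chromosome 10, 79890853 to 79892655, plus strand) was 1157, 987.8, 1011 and 793.9 FPKM in the WT libraries, in the same order, and 1032, 1319, 990.7 and 913.7 FPKM in the PATKO libraries. The lowest value was in WT 65 and the highest in PATKO 57, and its log2 change of 0.11 (SE 0.14, limma adjusted p = 0.585) was -0.09 after scaling.

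Partners of these hormones gave no call. Of 7 tested genes for receptors and processing of leptin, resistin and apelin 0 passed, with a median log2 change of 0.03, and -0.08 after scaling. At an unadjusted p under 0.05 in limma 1 was higher and 0 lower, and 0 and 1 after scaling. Among all tested genes 34.6% were higher and 1.39% lower in this way, and 9.1% and 8.21% after scaling. The alternative complement list had 8 tested genes, 0 of which passed in limma (2 higher and 0 lower unadjusted; 1 and 0 after scaling), with a median log2 change of 0.17, and 0.02 after scaling. The central component C3 was 80.0 ± 11.8 FPKM in WT and 101.5 ± 9.22 FPKM in PATKO (n = 4, SD; limma adjusted p = 0.0644), and Cfb, the substrate of adipsin, 4.81 ± 0.880 and 5.30 ± 1.69 FPKM (limma adjusted p = 0.749).

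Retinol-binding protein 4 carries vitamin A in blood. Rbp4 (chromosome 19, 38116629 to 38125281, minus strand) was 33.3, 39.1, 45.0 and 61.2 FPKM in WT 55, 62, 64 and 65, while PATKO 53, 57, 70 and 71 had 39.95, 33.6, 47.0 and 46.5 FPKM. WT 55 was lowest and WT 65 highest of the 8, so that WT spanned all PATKO values (log2 change -0.07, SE 0.18, limma adjusted p = 0.789; -0.27 after scaling). Of 13 tested genes of retinol transport and metabolism 3 rose, 0 fell and 10 did not pass, with a median log2 change of 0.26, and 0.08 after scaling, where 0 passed (3 higher and 1 lower unadjusted in limma). Limma called 13.2% of all tested genes higher as deposited, and unadjusted 9.1% were higher and 8.21% lower after scaling. Retinol saturase (Retsat) rose from 51.5 ± 5.44 to 72.5 ± 7.17 FPKM (n = 4, SD; limma adjusted p = 0.0244) and the retinoic acid receptor gene Rarg from 7.12 ± 0.483 to 10.5 ± 1.67 FPKM. Aldh1a1, which oxidises retinaldehyde, rose from 4.09 ± 0.361 to 8.58 ± 3.18 FPKM (limma adjusted p = 0.0278). Transthyretin (Ttr), which carries RBP4 in plasma, was listed at 0 in all 8 libraries, and the RBP4 receptor gene Stra6 was at or below 0.049 FPKM.

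Neuregulin 4 is an EGF-like factor that brown fat releases and that binds the receptor ERBB4. Nrg4 (chromosome 9, 55220222 to 55326844, minus strand) was 38.7, 46.9, 51.6 and 48.1 FPKM in WT 55, 62, 64 and 65, while PATKO 53, 57, 70 and 71 had 44.4, 45.6, 43.9 and 51.3 FPKM. The group means of 46.4 and 46.3 FPKM were nearly equal (log2 change 0.00, SE 0.09, limma adjusted p = 0.982), and the log2 change after scaling was -0.19 (limma adjusted p = 0.434). Fbxo22 overlaps Nrg4 on the other strand, and whether counting used strand is not stated. Of 7 tested ERBB receptor and ligand genes 2 rose, 0 fell and 5 did not pass, with a median log2 change of 0.40. After scaling the median was 0.26 and 0 passed (2 higher and 0 lower unadjusted in limma). The shares of all tested genes were 13.2% called higher as deposited, and 9.1% higher and 8.21% lower unadjusted after scaling. Erbb4 rose from 1.26 ± 0.219 to 1.88 ± 0.104 FPKM (n = 4, SD; limma adjusted p = 0.0397), and the ligand gene Egf from 0.574 ± 0.0685 to 0.953 ± 0.0560 FPKM (limma adjusted p = 0.0417). Erbb3 was 1.05 ± 0.215 and 1.54 ± 0.197 FPKM (limma adjusted p = 0.0678).

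Metrnl encodes meteorin-like, a secreted protein linked in mice to cold exposure and exercise. Metrnl (chromosome 11, 121701544 to 121716306, plus strand) was 1.97, 1.85, 1.72 and 2.05 FPKM in WT 55, 62, 64 and 65, while PATKO 53, 57, 70 and 71 had 2.96, 2.09, 3.09 and 2.53 FPKM. With FPKM as deposited the groups did not overlap, as for 24% of all tested genes in this direction, although PATKO 57 was just above WT 65. After scaling they did overlap. The PATKO mean was 1.41 times the WT mean (log2 change 0.39 with an SE of 0.12; adjusted p = 0.0551 in limma and p = 0.0286 in a two-sided exact permutation test), and 1.23 times after scaling (limma adjusted p = 0.285). The permutation p is the smallest that 70 assignments allow. Without PATKO 57 the rise passed with FPKM as deposited (log2 change 0.49, limma adjusted p = 0.0386).

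BMP8B, a bone morphogenetic protein that increases the response of brown adipocytes to sympathetic signals, had hardly any reads. Bmp8b (chromosome 4, 123105165 to 123132099, plus strand) was 0.031, 0.022, 0.023 and 0.023 FPKM in WT 55, 62, 64 and 65, while PATKO 53, 57, 70 and 71 had 0.119, 0.119, 0.022 and 0.045 FPKM. It was too low to be tested. After correction for relative depth, read from the steps of low values, these values were within 4% of 1 step in every WT library and of 5, 5, 1 and 2 steps in the PATKO libraries. Both groups thus rest on a few reads, and PATKO 53 and 57 alone were above 2 steps (two-sided exact permutation p = 0.143). Bmp8b overlaps Oxct2b and Ppie and has the near-identical paralog Bmp8a, so its reads are uncertain. Of 16 tested BMP receptor, SMAD and target genes 0 passed in limma (5 higher and 0 lower unadjusted; 1 and 0 after scaling), with a median log2 change of 0.18, and -0.01 after scaling. Unadjusted, 34.6% of all tested genes were higher as deposited and 9.1% after scaling. Id2, a target of BMP signals, was 18.1 ± 5.64 FPKM in WT and 27.1 ± 0.577 in PATKO (n = 4, SD; limma adjusted p = 0.0518). The receptor gene Bmpr1a was 8.37 ± 0.423 and 8.99 ± 0.283 FPKM (limma adjusted p = 0.299).

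Nampt encodes the enzyme that recycles nicotinamide to NAD and is also found outside cells. Nampt (chromosome 12, 32819545 to 32853349, plus strand) was 79.0, 82.0, 77.1 and 79.6 FPKM in WT 55, 62, 64 and 65, while PATKO 53, 57, 70 and 71 had 77.5, 75.3, 80.8 and 84.3 FPKM. It varied least among the members, with a coefficient of variation of 2.55% in WT and 4.96% in PATKO. Its log2 change was -0.00 (SE 0.06, limma adjusted p = 0.994), and -0.20 after scaling (SE 0.07, limma adjusted p = 0.203), where the groups still overlapped. Gdap10, a long noncoding RNA gene, overlaps Nampt on the same strand, and how shared reads were counted is not stated. Among genes that make or use NAD, 3 of 16 tested rose, 0 fell and 13 did not pass. Their median log2 change was 0.20, and 0.01 after scaling, where 0 passed (3 higher and 1 lower unadjusted in limma). Among all tested genes 13.2% were called higher as deposited, and 9.1% were higher and 8.21% lower unadjusted after scaling. Naprt, which starts NAD synthesis from nicotinic acid, rose from 13.2 ± 2.58 to 20.5 ± 1.40 FPKM (n = 4, SD; limma adjusted p = 0.0260). The nicotinamide riboside kinase gene Nmrk1 rose from 4.58 ± 0.542 to 6.71 ± 0.526 FPKM, and the deacylase gene Sirt2 from 53.6 ± 3.11 to 69.5 ± 2.83 FPKM (limma adjusted p = 0.0208). Parp1, a large consumer of NAD, was 21.9 ± 1.11 and 25.4 ± 0.811 FPKM (limma adjusted p = 0.0524).

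Apelin is a peptide that acts on vessels and heart through its receptor, the product of Aplnr. Apln (chromosome X, 48025146 to 48034853, minus strand) was 1.16, 0.630, 0.824 and 0.621 FPKM in WT 55, 62, 64 and 65, while PATKO 53, 57, 70 and 71 had 1.29, 0.975, 1.06 and 0.800 FPKM. WT 55 was above 3 of the 4 PATKO libraries (log2 change 0.24, SE 0.17, limma adjusted p = 0.316; 0.11 after scaling). Aplnr ran from 7.29 to 12.8 FPKM in WT and from 9.84 to 13.99 FPKM in PATKO (limma adjusted p = 0.179).

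**Figure D3:**
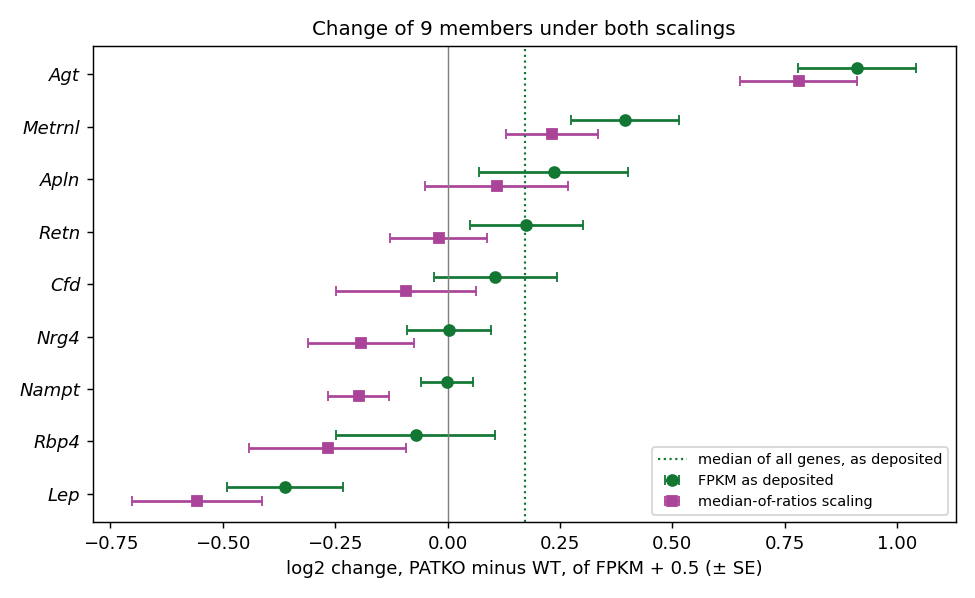
Log2 change of FPKM + 0.5, PATKO minus WT, with SE, for the 9 tested members; circles are FPKM as deposited, squares are median-of-ratios scaled values, and the dotted line is the median of all genes, 0.17. Scaling moves every member to the left; Agt stays the highest at 0.78 and Lep the lowest at -0.56.

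Other secreted factors of fat were described as lists. Of 37 other adipokine genes 36 were in the table and 29 were tested; 4 rose, 1 fell and 24 did not pass, with a median log2 change of 0.26, and 0.10 after scaling, where 0 passed (5 higher and 2 lower unadjusted in limma). The count that rose is near the 13.2% of all tested genes called higher, and 0.27% were called lower. Unadjusted after scaling, 9.1% of all tested genes were higher and 8.21% lower. Ctsz, a secreted cathepsin, rose from 77.1 ± 7.32 to 109.0 ± 4.06 FPKM (n = 4, SD; limma adjusted p = 0.0181). The plasma glutathione peroxidase Gpx3 rose from 1890 ± 527.0 to 2874 ± 309.6 FPKM, and Retnla, a resistin-like gene, from 18.5 to 33.3 FPKM in the WT libraries to 33.4 to 54.0 FPKM in the PATKO libraries (limma adjusted p = 0.0435). The chemokine gene Ccl2 fell from 1.93 ± 0.966 to 0.553 ± 0.233 FPKM (limma adjusted p = 0.0331). Adiponectin (Adipoq) was 995.7 ± 105.0 and 1157 ± 145.1 FPKM (limma adjusted p = 0.175).

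Of 18 tested genes for other brown fat factors 0 passed in limma (2 higher and 1 lower unadjusted; 1 and 2 after scaling), with a median log2 change of 0.17, and -0.03 after scaling. The unadjusted shares of all tested genes were 34.6% higher and 1.39% lower, and 9.1% and 8.21% after scaling. Angptl8, an inhibitor of lipoprotein lipase, was 23.1 ± 7.19 FPKM in WT and 13.3 ± 3.14 in PATKO (n = 4, SD; limma adjusted p = 0.0549). Ependymin-related Epdr1 was 1.06 ± 0.281 and 2.96 ± 1.80 FPKM (limma adjusted p = 0.0564). Vegfa, which promotes vessel growth, was 136.1 ± 24.3 and 153.5 ± 6.19 FPKM (limma adjusted p = 0.242). Fgf21, a hormone of fasting and cold, was 0.426 ± 0.412 and 0.304 ± 0.125 FPKM and was not tested.

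**Figure D4:**
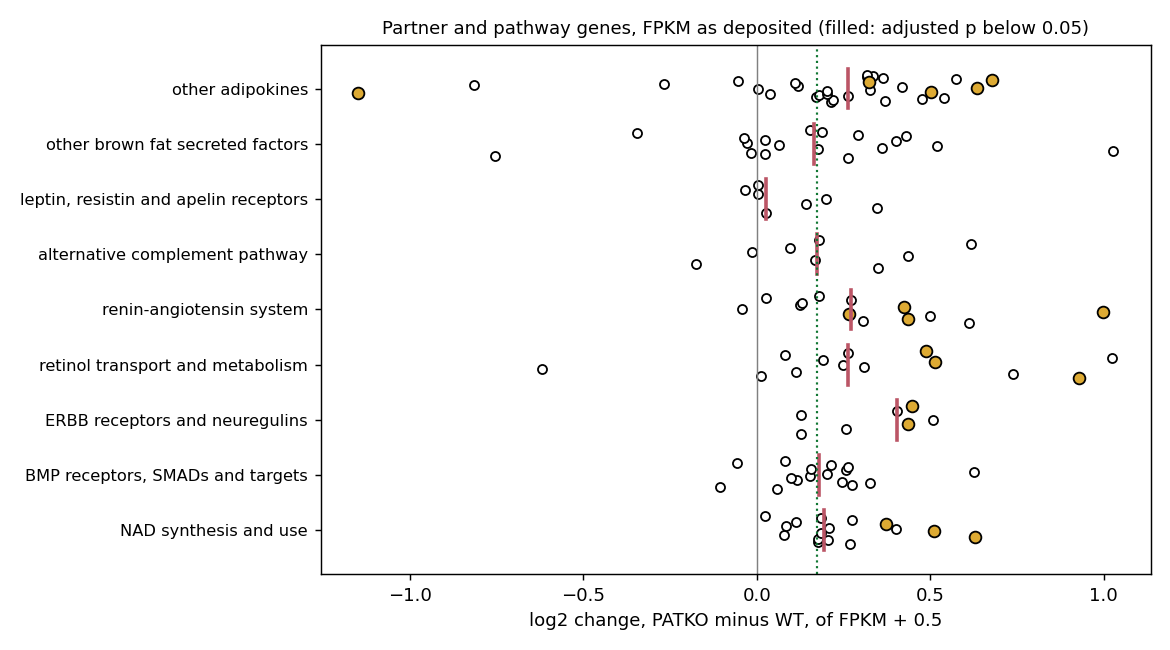
Log2 change of FPKM + 0.5, PATKO minus WT, for the tested genes of 9 lists, with FPKM as deposited; filled points passed an adjusted p of 0.05 in limma, red bars are list medians, and the dotted line is the median of all genes, 0.17. The ERBB list has the highest median, 0.40, and Ccl2, at -1.15, is the sole filled point below 0.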

How the data were processed

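Poly(A) RNA from brown adipose tissue was sequenced after stranded library preparation from 0.5 µg of total RNA, per the labels' protocols. Per the file headers, the authors deposited FPKM per gene and library, group means of FPKM, and an adjusted p-value for PATKO against WT. The genome build was mm10, per the submitters' processing notes; aligner, counting and test: not given in the sources used here. FPKM are not counts, so log2(FPKM + 0.5) of the 12235 genes averaging 0.5 FPKM or more was tested two-sided in R 4.3.3 with limma 3.58.1 and its mean-variance trend, with Benjamini-Hochberg adjustment over all of them and a threshold of 0.05. The step was tested on simulated data without a shift common to all genes, so that test does not cover the shift seen here. Exact permutation tests used Python 3.11.15 with scipy 1.17.1. Absolute depth is unknown; steps of low values put the other 7 libraries at 1.30 to 1.43 times the depth of WT 55. Gene positions were read from GENCODE M21 for GRCm38, which is the assembly behind mm10. The members, the lists and the tests were chosen with earlier results of these data known. Named were all members and, of each list, up to 4 genes by smallest adjusted p; other list genes (Adipoq, Agtr1a, Elovl3, Aplnr, Bmpr1a, Cfb, Vegfa and genes at or near 0) were picked with their values in view. For 1 list gene the result is not reported here. Alternatives were a pseudocount of 1 or 0.1, a minimum mean of 5 FPKM or no filter, other scalings, limma without trend or with robust, and leaving out each library.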

Additional observations from a re-analysis of the deposited data

Results flagged for a closer look

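Among the 20 groups formed by 10 members in WT and PATKO, 1 had a library far from the other 3, where chance gives about 1 in 20. Bmp8b was 0.031 FPKM in WT 55 and 0.022 to 0.023 FPKM in the other WT libraries. WT 55 is the library with the lowest relative depth, and in steps of low values Bmp8b was at 1 step there as in the other WT libraries.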

How the results depend on the processing

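No paired analysis was possible because the groups share no replicate numbers. The change of Agt kept its direction in all 24 alternatives that could test it (0.69 to 1.25) and passed in 13 of them. With 1 of the 8 libraries left out it passed in 6 fits as deposited and in 1 after median-of-ratios scaling. After scaling to a common total it passed narrowly (limma adjusted p = 0.0470). In the main test 1 member was called higher. None was called after median-of-ratios scaling, quantile normalization or a minimum mean of 5 FPKM, where Agt was not tested. Lep stayed below 0 (-0.67 to -0.27; adjusted p = 0.0402 to 0.256) and Metrnl above 0 (0.18 to 0.49; adjusted p = 0.0386 to 0.497); each passed in 1 alternative. Directions turned for members near 0: after median-of-ratios scaling Retn was -0.020, Cfd -0.092 and Nrg4 -0.19, and Nrg4 was -0.098 after scaling to a common total and -0.16 after quantile normalization. Leaving out 1 library gave, with FPKM as deposited and then scaled, -0.079 to 0.058 and -0.29 to -0.12 for Nrg4, -0.0019 to 0.19 and -0.21 to -0.025 for Cfd, 0.11 to 0.27 and -0.090 to 0.055 for Retn, -0.20 to 0.091 and -0.41 to -0.12 for Rbp4, and -0.029 to 0.025 and -0.24 to -0.17 for Nampt. Members called then numbered 0 to 2 higher and 0 to 1 lower as deposited, and 0 to 1 higher and 0 lower scaled.

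Genes called higher and lower numbered 700 and 13 with no filter, 973 and 19 without trend, 10 and 5 after median-of-ratios scaling, 25 and 6 after scaling to a common total, and 12 and 6 after quantile normalization, against 1613 and 33. Genes called higher numbered 21 without WT 64, 22 without PATKO 53, 119 without PATKO 70, 138 without WT 62, 616 without WT 65, 730 without PATKO 71, 1004 without PATKO 57 and 1403 without WT 55; those called lower 2 to 65. After median-of-ratios scaling these ranges were 1 to 33 and 2 to 24. The cause was not tested. Depth limits Bmp8b, whose values rest on a few reads.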
